A study of Culex quinquefasciatus with 7 samples.

Results

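Gene expression in whole adult females of the southern house mosquito, Culex quinquefasciatus, was compared between 12 h and 2 h after eclosion, when the adult leaves the pupa. The comparison rests on 2 of the 7 mRNA libraries of a time series that runs to 72 h, with 1 library from 200 pooled females at each time. All females were reared with light and dark phases of 12 h each, with no treatment named in the labels. Values were read as FPKM, a unit in which fragment numbers are divided by the length of the gene model and by a library total. A value is thus relative to its library and not an amount per animal, and how the libraries were scaled was not given. The comparison took in every gene with at least 5 FPKM in either library, which gave 6764 of 20305 genes in the table. Of the 13541 genes left aside, 8703 were below 1 FPKM in both libraries and 3281 of these were listed at 0 in both.

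A mosquito leaves the pupal skin with a soft cuticle, which hardens and darkens while the animal rests. During the first days of adult life tissues kept from the immature stages break down and the flight muscle, gut, fat body and ovaries mature. Juvenile hormone prepares the fat body and the ovaries for a later blood meal, and a female takes blood only after this phase. The series covers that pre-blood-meal phase, and the 2 h and 12 h libraries are its earliest pair.

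Each time has a single library, so differences are given by size and none was tested. Age, hour of the day, the pool of females and the library itself cannot be told apart between a pair of single libraries. In whole animals, fewer cells of a type and less RNA per cell cannot be told apart either. The table identifies genes by CPIJ numbers without names, and 0 of 20305 could be matched to the 18458 genes of a RefSeq table of another assembly. Genes are therefore described by level, size of change and time course, without function, and markers of tissues or of other material were not assessed.

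The whole distribution was shifted upwards at 12 h. The median change was 0.28 on the scale of log2(FPKM + 1), 12 h over 2 h, with quartiles of -0.09 and 0.60, and 70.8% of the genes compared had a higher value at 12 h. Over the 2761 genes that reached 10 FPKM in all 7 libraries, the median ratio was 0.919 for the 12 h library and 0.772 for the 2 h library, relative to the geometric mean of all 7, a shift of 0.25 on the log2 scale. After the libraries were rescaled by this ratio the median change was 0.04, with quartiles of -0.33 and 0.36, and 54.02% of 7253 genes were higher at 12 h. The sums of FPKM were almost equal, at 428805 at 12 h and 431475 at 2 h. The 100 most abundant genes held 39.7% of the sum at 12 h, against 46.3% at 2 h. Judged by the steps between the lowest values, the 12 h library would be 0.93 times as deep as the 2 h library. This holds only if values were divided by each library's own fragment total, which was not given.

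**Figure D1:**
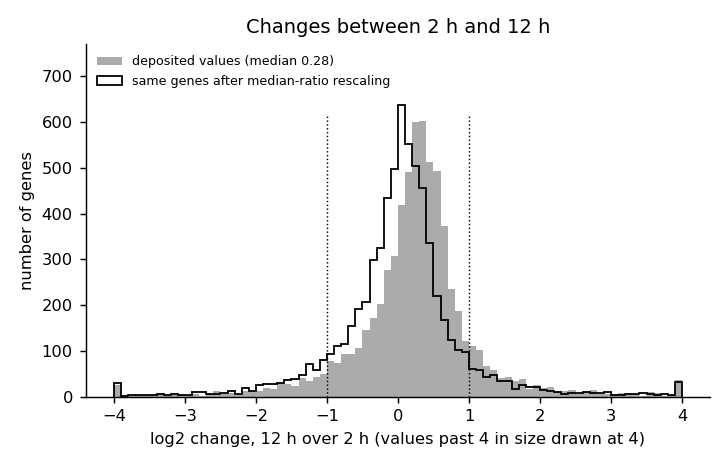
Number of genes by log2 change, 12 h over 2 h, for the 6764 genes compared, with the deposited values (grey) and for the same genes after median-ratio rescaling (black line); dotted lines mark 2-fold. The bulk of genes lies within 2-fold on both scales, with a deposited median of 0.28, and rescaling moves the whole distribution to the left.

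Most genes differed little between 12 h and 2 h: 5587 genes, 82.6% of those compared, were within 2-fold, and 1177 (17.4%) were not. At least 2-fold higher values at 12 h were found for 756 genes (11.2% of the 6764 compared) and at least 2-fold lower values for 421 genes (6.22%). The part of the differing genes that was higher was 64.2% with the deposited values and 45.9% after rescaling, when 549 genes were higher (7.57% of 7253) and 647 lower (8.92%). Which direction held more genes at 2-fold thus turned with the scaling. The lists themselves were nested rather than different. All 421 genes lower with the deposited values were also lower after rescaling, where they made up 65.1% of the 647, and 540 genes were higher on both scales, which is 71.4% of the 756 and 98.4% of the 549. Near the limit, 110 genes lay between 1.0 and 1.1 on the higher side and 121 between 0.9 and 1.0, against 49 and 79 genes at the same distances on the lower side.

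The levels of both sets follow in part from their choice, since a higher gene needed 5 FPKM only at 12 h and a lower gene only at 2 h. Genes 2-fold higher at 12 h had a median of 19.5 FPKM at 12 h, against 5.12 FPKM at 2 h. Their quartiles were 9.75 and 48.01 FPKM at 12 h, against 2.23 and 12.5 FPKM at 2 h. Genes 2-fold lower had a median of 7.84 FPKM at 12 h, against 30.5 FPKM at 2 h, with quartiles of 2.92 and 22.3 FPKM at 12 h, against 13.5 and 85.2 FPKM at 2 h. Among the 5614 genes with at least 5 FPKM at 2 h, a choice that sets no condition on the 12 h library, 387 were 2-fold higher at 12 h (6.89%) and 421 lower (7.50%). Among the 6437 genes with at least 5 FPKM at 12 h, 756 were 2-fold higher (11.7%) and 264 lower (4.10%). A gene below 5 FPKM in one library entered the comparison only through the other, so its direction was fixed by the minimum.

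**Figure D2:**
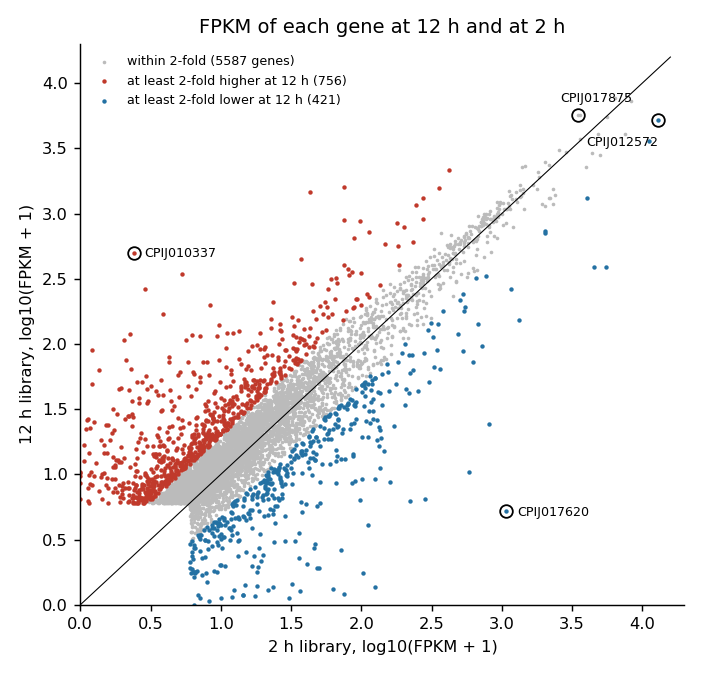
FPKM of the 6764 genes in the 12 h library (vertical) and the 2 h library (horizontal), as log10(FPKM + 1); red genes were at least 2-fold higher and blue genes at least 2-fold lower at 12 h, and the circled genes are described in the text. The empty lower left corner is the minimum of 5 FPKM in either library, and the widest spread lies below the most abundant genes.

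Sorted by the higher of the values at 12 h and 2 h, 11.01% of the 2424 genes between 5 and 10 FPKM differed at least 2-fold in either direction. The percentage was 15.1% between 10 and 20 FPKM, 22.2% between 20 and 50 FPKM, 30.95% between 50 and 100 FPKM and 35.7% of the 263 genes between 100 and 200 FPKM. It was lower again above that level, at 22.7% between 200 and 500 FPKM, 18.03% between 500 and 1000 FPKM and 21.1% of the 76 genes at 1000 FPKM or more. The direction also went with level. With the deposited values, higher genes outnumbered lower genes by 194 to 73 in the lowest of these bins, both counted 47 between 100 and 200 FPKM, and lower genes outnumbered higher ones by 10 to 6 at 1000 FPKM or more. After rescaling, higher genes outnumbered lower genes by 132 to 108 in the lowest bin. Lower genes were already ahead between 20 and 50 FPKM, by 163 to 136, and between 100 and 200 FPKM by 83 to 43. The level at which the balance turned thus depended on the scaling. The added 1 FPKM damps the differences of the lowest genes on the log2 scale. Sorted instead by the deposited value at 2 h, all 67 genes below 1 FPKM were 2-fold higher. The minimum fixed that outcome, since such a gene entered only with at least 5 FPKM at 12 h. Of the 1083 genes between 1 and 5 FPKM at 2 h, 27.9% were 2-fold higher, and the minimum fixed their direction. Of the 2178 genes between 5 and 10 FPKM at 2 h, 10.7% differed 2-fold.

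The 60 h and 48 h libraries show how far a pair of separate pools differed late in the series. They were the closest pair of neighbouring libraries by the share of FPKM that lay in other genes (7.99%, against 9.06% for 48 h over 36 h and 9.86% for 72 h over 60 h), so they mark the low end of such differences. There 37 of 8278 genes were 2-fold higher at 60 h (0.447%) and 42 lower (0.507%). The percentage past 2-fold in either direction was between 0 and 2.19% in every bin of level, against 11.01% to 35.7% in the first interval. Differences of at least 4-fold in either direction numbered 341 between 12 h and 2 h (5.04%) and 12 between 60 h and 48 h (0.145%).

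**Figure D3:**
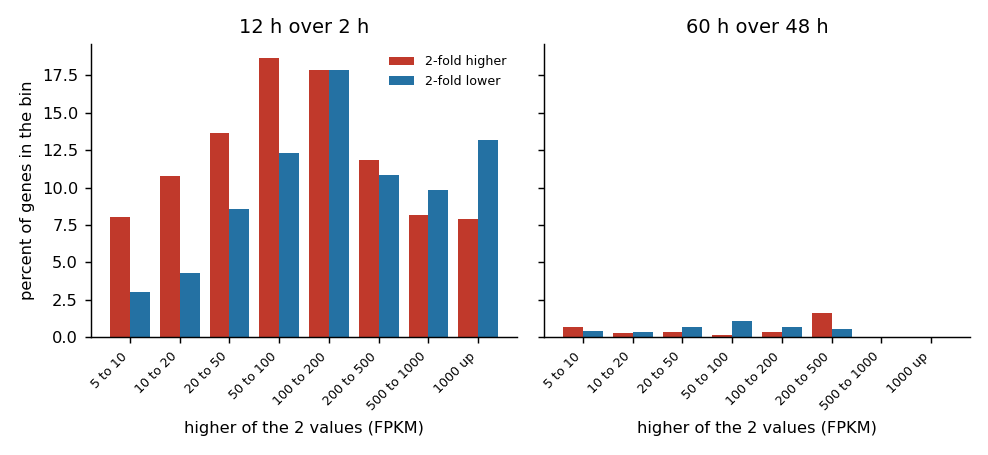
Percentage of genes at least 2-fold higher (red) or lower (blue), by the higher of both values in FPKM, for 12 h over 2 h (left) and 60 h over 48 h (right), with deposited values and 1 library per time. In the first interval both directions together peak between 100 and 200 FPKM on this sorting, and the late pair of libraries stays at or below 2.19% in either direction together.

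Large differences were more frequent in the first interval than in the next. At least 4-fold higher values at 12 h than at 2 h were found in 217 genes (3.21%) and at least 4-fold lower values in 124 (1.83%). For 24 h over 12 h, an interval that shares the 12 h library, 722 of 7578 genes were 2-fold higher (9.53%) and 302 lower (3.99%), while 69 were 4-fold higher (0.911%) and 84 lower (1.11%). For 36 h over 24 h, 127 of 7858 genes were 2-fold higher (1.62%) and 116 lower (1.48%), and 0 genes were 4-fold higher against 24 lower (0.305%). Differences of at least 10-fold were found in 71 higher genes (1.05%) and 40 lower genes (0.591%) between 12 h and 2 h, in 9 higher (0.119%) and 23 lower genes (0.304%) between 24 h and 12 h, and in 0 higher and 8 lower genes (0.102%) between 36 h and 24 h. After rescaling the first interval had 179 genes 4-fold higher (2.47%) and 171 lower (2.36%), and 66 higher (0.91%) and 52 lower (0.717%) at 10-fold. For 24 h over 12 h rescaling turned the 2-fold split to 406 higher (5.41% of 7506) and 475 lower (6.33%). It left 49 higher (0.653%) and 104 lower (1.39%) at 4-fold, and 9 (0.12%) and 26 (0.346%) at 10-fold.

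A small group of genes went between near absence and clear expression. In 67 of the 6764 genes compared the value was at least 5 FPKM at 12 h and below 1 FPKM at 2 h. Their median at 12 h was 10.5 FPKM and their highest value 88.1 FPKM, and 5 of them were listed at 0 at 2 h. The later libraries, which did not enter the choice, mostly kept these genes expressed: 62 of the 67 had at least 5 FPKM at 24 h. This number was 59, 48, 51 and 45 in the libraries from 36 to 72 h, while 1 to 4 were below 1 FPKM at any of these times.

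The reverse, below 1 FPKM at 12 h and at least 5 FPKM at 2 h, was found in 41 of the 6764 genes. Their median at 2 h was 11.1 FPKM and their highest value 124.4 FPKM, and 1 gene was listed at 0 at 12 h. Of these 41 genes, 31 were also below 1 FPKM at 24 h, and from 36 to 72 h the number was 35, 34, 36 and 34. At 48 h 2 of them had at least 5 FPKM again, and at the other later times 0 had. After rescaling, 50 of 7253 genes met the first condition and 53 the second, so the order of these counts also turned with the scaling.

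At the abundant end of the library a few very abundant transcripts had lower shares at 12 h. The 10 most abundant genes at 2 h held 9.60% of the sum of FPKM at 12 h, against 16.7% at 2 h, and later 4.37% (24 h) and 1.19% (72 h). In the 12 h library 4 of these 10 were 2-fold lower or more, 6 were within 2-fold and 0 were higher by that much. Among the top 100 genes at 2 h, 12 were 2-fold lower at 12 h, 88 within 2-fold and 0 higher. Among the top 100 genes at 12 h, 10 were 2-fold higher than at 2 h and 3 lower. The lists of the 10 most abundant genes at 12 h and 2 h shared 7 genes, those of the 20 most abundant 15, those of the 50 most abundant 39 and those of the 200 most abundant 170. Between 24 h and 12 h the corresponding numbers were 4, 7, 25 and 164, so the very top of the list changed more in the second interval than in the first.

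Expressed as shares of each library, 20.8% of the FPKM at 12 h lay in other genes than at 2 h, the sum of all gains in share. The corresponding share for 24 h over 12 h was 23.8%, that for 36 h over 24 h was 13.2%, and the later 3 intervals had 9.06%, 7.99% and 9.86%. In the first interval the loss was concentrated and the gain was spread. The 10 genes with the greatest loss of share made up 41.6% of all loss and 18 genes made up 50% of it, whereas the 10 with the greatest gain made up 16.1% of all gain and 158 genes were needed for 50%. The 421 genes 2-fold lower at 12 h held 4.89% of the sum at 12 h, against 17.5% at 2 h. The 756 genes 2-fold higher held 11.1% of the sum at 12 h, against 2.58% at 2 h. With the sets chosen after rescaling, the 647 lower genes held 9.19% of the sum at 12 h, against 25.3% at 2 h, and the 549 higher genes 9.37% at 12 h, against 1.83% at 2 h. The lower set of 421 held still less later, with 1.63% at 24 h and 1.27% at 72 h. For the 756 higher genes these later shares were 14.1% and 11.9%.

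CPIJ012572 was the gene with the greatest difference in FPKM among those lower at 12 h. It had 5190 FPKM at 12 h, where it ranked 6, against 12982 FPKM at 2 h, where it ranked 1 of all genes, a log2 change of -1.32 (-1.57 after rescaling). Its value was 129 FPKM at 24 h, 42.1 FPKM at 36 h, and between 14.9 and 23.9 FPKM from 48 to 72 h. In FPKM the greater part of its decline lay before 12 h, and in fold the greater part lay between 12 and 24 h. It alone held 1.21% of the sum at 12 h, against 3.01% at 2 h.

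The 15 genes with the greatest losses in FPKM, from 1010 to 7792 FPKM each, summed to 27112 FPKM at 12 h, against 70372 FPKM at 2 h. These sums were 6.32% of the library at 12 h, against 16.3% at 2 h. Of the 15, 9 were at least 2-fold lower at 12 h and 6 were not. At 24 h 10 of the 15 were below 10% of their 2 h value, at 36 h 11 were, and at 72 h all 15 were. The third and the fourth of them, given by rank only, had 386 and 387 FPKM at 12 h, against 5516 and 4566 FPKM at 2 h, log2 changes of -3.83 and -3.56. They were at 26.1 and 64.2 FPKM at 24 h, and their fold change by 12 h was greater than that of CPIJ012572.

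CPIJ017620 had the greatest log2 change among the genes lower at 12 h, at -7.67 (-7.95 after rescaling). It stood at 4.28 FPKM at 12 h, against 1078 FPKM at 2 h, where it ranked 57 of all genes. Its values then were 2.15 FPKM at 24 h, 1.21 FPKM at 36 h, 0.0583 FPKM at 48 h, 0.392 FPKM at 60 h and 0.783 FPKM at 72 h. The 2 h library was thus the only one of the 7 in which this transcript was abundant.

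Low values after 2 h were also seen across the 25 genes with the greatest log2 decreases among genes with 10 FPKM or more at 12 h or 2 h, whose changes were between -3.91 and -7.67. They had 0.118 to 23.5 FPKM at 12 h with a median of 1.05 FPKM, against 16.5 to 1078 FPKM at 2 h with a median of 62.01 FPKM. At 12 h 12 of the 25 were below 1 FPKM. At 24 h 3 of the 25 were above their 12 h value, 1 of them at least 2-fold. At 72 h 2 were at least 2-fold above and 10 at least 2-fold below it. At 72 h their median was 0.357 FPKM and their highest value 5.09 FPKM, and 0 of the 25 had come back above 50% of their 2 h value. Among them were 4 genes whose identifier number follows or precedes that of another of the 25.

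CPIJ010337 had the greatest log2 change among the genes higher at 12 h, at 7.69 (7.58 after rescaling). It stood at 496 FPKM at 12 h, where it ranked 174 of all genes, against 1.41 FPKM at 2 h, where it ranked 9703. Its later values were 196 FPKM at 24 h, 118 FPKM at 36 h, 104 FPKM at 48 h, 103 FPKM at 60 h and 109 FPKM at 72 h. It therefore peaked at 12 h and settled at a level that was still far above that of 2 h. The genes with the next 2 identifier numbers were also among the 25 greatest increases, in second and seventh place, with 261 and 62.3 FPKM at 12 h, against 1.88 and 0.366 FPKM at 2 h. These 3 genes differed after 12 h: at 24 h the second had 23.2 FPKM and the third 202 FPKM, and at 72 h they had 10.3 and 61.4 FPKM.

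Over the 25 greatest increases, with log2 changes between 4.25 and 7.69, values were 21.3 to 1605 FPKM at 12 h with a median of 63.2 FPKM, against 0.0963 to 73.7 FPKM at 2 h with a median of 1.23 FPKM. At 24 h 21 of the 25 had a higher value than at 12 h, 8 of them at least 2-fold, and 3 had a value at least 2-fold below that at 12 h. Of all 7578 genes compared for 24 h over 12 h, 9.53% were 2-fold higher and 3.99% lower. These counts use the deposited values, where the median ratio was 1.08 for the 24 h library and 0.919 for the 12 h library. For the 25 genes they were not repeated after rescaling. At 72 h 4 of the 25 were at least 2-fold above and 6 at least 2-fold below their 12 h value. The values of the 25 at 72 h lay between 9.45 and 1352 FPKM with a median of 48.02 FPKM. A successive identifier within the same 25 genes was found for 11 of them, against 4 of 25 among the greatest decreases.

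CPIJ017875 had the greatest gain in FPKM, with 5697 FPKM at 12 h, where it ranked 3, against 3509 FPKM at 2 h, where it ranked 16. This gain of 2188 FPKM was a log2 change of 0.70 (0.45 after rescaling), under the 2-fold limit. Its later values were 532 FPKM at 24 h, 11.7 FPKM at 36 h, 1.69 FPKM at 48 h, 2.83 FPKM at 60 h and 4.45 FPKM at 72 h. It was thus abundant in the first libraries only, with its peak at 12 h.

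Such brief expression was also seen among the 15 genes with the greatest gains in FPKM, from 634 to 2188 FPKM each. The 12 h value enters both the choice of these genes and the counts of later falls, so a fall follows in part from the choice. The same counts were not made over all genes compared. Of the 15, 10 were past 2-fold. At 24 h 2 of the 15 were below 10% of their 12 h value, at 36 h 7 were and at 72 h 8 were. 1 of the 15 was more than 2-fold above its 12 h value at 72 h. A pair of genes with successive identifiers, at rank 8 and 9, had 1306 and 1167 FPKM at 12 h, against 274 and 243 FPKM at 2 h, and both were below 5 FPKM at 36 h. How reads shared between closely similar gene copies were assigned was not given in the sources used here, so the separate values of such pairs are uncertain.

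**Figure D4:**
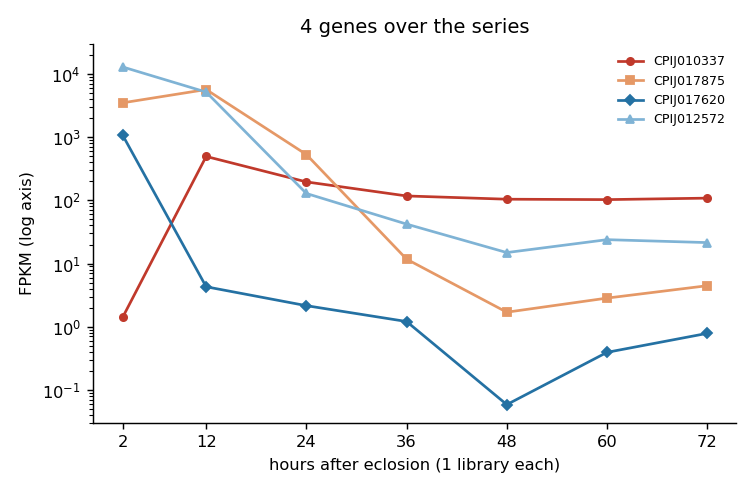
FPKM (log axis) of 4 genes in the 7 libraries by hours after eclosion, chosen as the greatest log2 change and the greatest difference in FPKM in each direction between 2 h and 12 h. CPIJ010337 peaks at 496 FPKM at 12 h and stays above 100 FPKM, CPIJ017875 peaks at 12 h and is at 11.7 FPKM by 36 h, CPIJ017620 is at 4.28 FPKM by 12 h, and CPIJ012572 has 5190 FPKM at 12 h but 129 FPKM in the 24 h library.

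The later libraries show how lasting the differences of the first interval were. Of the 756 genes 2-fold higher at 12 h, 563 (74.5%) had a 24 h value within 2-fold of that at 12 h. A further 132 (17.5%) had moved 2-fold or more above it, and 61 (8.07%) had dropped 2-fold or more below it. Of all 7578 genes compared for 24 h over 12 h, 9.53% were 2-fold higher and 3.99% lower. After rescaling, 404 of the 549 higher genes were within 2-fold at 24 h, 73 were further above and 72 below. The excess of further rises thus depended on the scaling. With the deposited values, 595 of the 756 genes were within 2-fold at 36 h, and 511 at 72 h. The median of the 756 genes was 5.12 FPKM at 2 h, 19.5 FPKM at 12 h, 26.3 FPKM at 24 h, 24.6 FPKM at 36 h and 24.1 FPKM at 72 h. The 12 h library enters both the choice and this comparison, so an error in it would appear as a return at 24 h.

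Of the 421 genes in the lower set, 316 (75.1%) had a 24 h value within 2-fold of that at 12 h. Another 75 (17.8%) had dropped by 2-fold or more again, and 30 (7.13%) had come back by 2-fold or more. Of all 7578 genes compared for 24 h over 12 h, 3.99% were 2-fold lower and 9.53% higher. After rescaling, 121 of the 647 lower genes had dropped again and 20 had come back, against 6.33% lower and 5.41% higher over all 7506 genes. With the deposited values, 285 of the 421 genes were within 2-fold of their 12 h value at 72 h, 102 further below and 34 above. Their median was 30.5 FPKM at 2 h, 7.84 FPKM at 12 h, 6.86 FPKM at 24 h, 5.65 FPKM at 36 h and 6.09 FPKM at 72 h. The 2 h value enters both the choice of genes and the next count, so a lasting difference follows in part from the choice. Measured against the 2 h library, 80.3% of the 421 genes were still at least 2-fold lower at 72 h, and 80.03% of the higher set were still 2-fold or more above it. After rescaling these were 87.2% of the 647 lower genes and 72.9% of the 549 higher genes, so their near equality depended on the scaling. The same count was not made over all genes compared.

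For genes past 4-fold at 12 h, the 72 h values were also set against those at 2 h. The 2 h library enters both the choice and this count, so an error in it would appear as a lasting difference. At 72 h 121 of the 124 genes 4-fold lower at 12 h (97.6%) were still at least 2-fold below their 2 h value, and 190 of the 217 genes 4-fold higher at 12 h (87.6%) were still at least 2-fold above theirs. At 72 h 54 of the 217 higher genes (24.9%) were at least 2-fold below their 12 h value, whereas 11 of the 124 lower genes (8.87%) were at least 2-fold above theirs. After rescaling these were 60 of 179 genes (33.5%) and 10 of 171 (5.85%). The 12 h value enters both the choice and the counts against 12 h. With the deposited values, the 4-fold lower genes had a median of 4.39 FPKM at 12 h, against 34.0 FPKM for the 4-fold higher genes. The added 1 FPKM damps changes of low genes, so the percentages of both directions are not directly comparable. The difference between the directions was not tested.

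**Figure D5:**
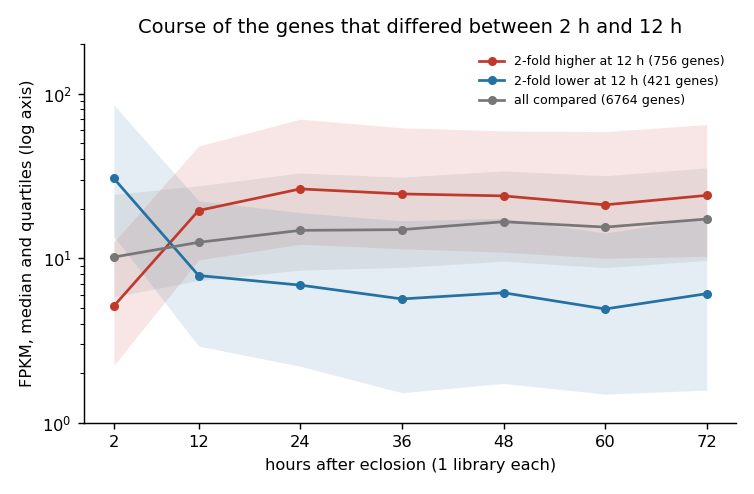
Median FPKM (points, log axis) and quartiles (bands) in the 7 libraries by hours after eclosion for the 756 genes 2-fold higher at 12 h (red), the 421 genes 2-fold lower at 12 h (blue) and all 6764 genes compared (grey). The 2 h and 12 h points reflect the choice of genes; from 24 h on the red medians stay between 21.1 and 26.3 FPKM and the blue medians between 4.91 and 6.86 FPKM.

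For the genes that differed, the 2 h library was usually the one at the end of the range. The 2 h value enters both the choice of genes and this count. A greater percentage past 2-fold than under it therefore follows in part from the choice, and an error in the 2 h library would add to it. In 699 of the 756 genes 2-fold higher at 12 h (92.5%), the 2 h value was the lowest of all 7, against 79.03% of the 4034 genes that were higher at 12 h by less than 2-fold. In 400 of the 421 genes 2-fold lower at 12 h (95.01%), the 2 h value was the highest of all 7, against 49.8% of the 1553 genes that were lower by less than 2-fold. After rescaling these percentages were 88.5% and 96.6% for the genes past 2-fold, and 64.9% and 55.5% for the others. The 12 h value was the highest of all 7 in 139 of the 756 genes (18.4%) and the lowest of all in 99 of the 421 (23.5%). It lay between the values at 2 h and 24 h in 521 (68.9%) and 256 (60.8%) of them, against 63.5% of all genes compared. Among genes under 2-fold it did so in 70.2% of those higher and 44.3% of those lower at 12 h. After rescaling these were 57.2% and 70.2% past 2-fold, 54.3% and 55.3% under 2-fold, and 56.3% of all. Higher genes past and under 2-fold were thus close on both scales, while lower genes past 2-fold showed this order more often. The difference was not tested.

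Genes with successive identifiers often differed alike. Of the 756 genes 2-fold higher at 12 h, 514 had a neighbour in identifier number among the genes compared, and 221 of these (43.0%) were next to another gene that was 2-fold higher. Over all 4774 compared genes with such a neighbour, 13.4% were next to a gene that was 2-fold higher. Of the 421 genes 2-fold lower, 293 had a neighbour and 91 of them (31.1%) were next to another lower gene, against 7.71% over all. A neighbour that differed 2-fold in the opposite direction was found for 38 of the 514 higher genes (7.39%) and 38 of the 293 lower genes (12.97%). Whether successive numbers mark neighbouring genes was not given in the sources used here, and reads shared between similar copies could make neighbours alike; their part in this was not tested.

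Runs of 3 or more successive identifiers numbered 21 among the higher genes and 6 among the lower genes. After rescaling there were 19 and 15. The longest run held 9 higher genes, with a median of 9.24 FPKM at 12 h, against 0.469 FPKM at 2 h, and log2 changes from 2.03 to 3.38. Its median was 11.9 FPKM at 24 h and 5.66 FPKM at 72 h. The next longest held 6 higher genes at a higher level, with a median of 188 FPKM at 12 h, against 37.5 FPKM at 2 h, log2 changes from 1.94 to 2.70 and a median of 153 FPKM at 72 h. Together those 6 genes held 0.669% of the sum at 12 h, against 0.145% at 2 h. The longest run among the lower genes held 4.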

How the data were processed

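The table deposited by the authors holds 1 value per gene and library, read as FPKM. The unit rests on the pipeline of the design text (TopHat, Cufflinks, Cuffdiff) and on values that are not whole; per the file headers, the columns give the hour only. Per the submitters' processing notes, CASAVA 1.8 and Trimmomatic were also used. For genome build, annotation, strand, shared reads and library scaling, details were not given in the sources used here, and the number of fragments is unknown.

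Changes were computed as log2((12 h + 1)/(2 h + 1)), which understates changes of low genes, among genes with at least 5 FPKM in either library. Rescaling divided each library by its median ratio to the geometric mean over genes with at least 10 FPKM in all 7 libraries, and the minimum was then applied to the rescaled values. "Within", "above" and "below" 2-fold are on the same scale. With 1 library per time no test was made. Relative depth was the commonest ratio between values above 0 and below 0.3 FPKM, which held 15.5% of 1841 genes within a window of 0.02 (log2). Neighbours are genes whose identifier numbers differ by 1. Identifiers printed were the greatest log2 change and the greatest FPKM difference per direction, among genes that reached 10 FPKM at 12 h or 2 h; others are given by rank or position. The rescaling and the calling of genes past 2-fold were checked on simulated data, and the other counts were not. Comparisons, lists and members were chosen with earlier results of these data known. Gene lists by name could not be built. Python 3.11.15, numpy 2.4.6 and pandas 2.3.3 were used.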

Additional observations from a re-analysis of the deposited data

How the results depend on the processing

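Of 148 alternative values for counts and shares, 126 stayed within 1.5 times of the reported value. Median-ratio rescaling over 7 libraries gave 647 genes 2-fold lower at 12 h against 421, 406 higher and 475 lower for 24 h over 12 h against 722 and 302, and a share at 12 h of 9.19% in the lower genes against 4.89%; with the ratio over the 12 h and 2 h libraries alone this share was 8.57%. With an equal sum, 205 genes were higher for 36 h over 24 h against 127. A pseudocount of 0.1 gave 114 genes 10-fold higher at 12 h against 71, 191 higher for 36 h over 24 h, and 65 lower for 60 h over 48 h against 42. With at least 20 FPKM, which leaves fewer genes, 368 were 2-fold higher, 271 lower and 142 4-fold higher at 12 h; for 24 h over 12 h 322 were higher and 180 lower, for 36 h over 24 h 46 and 75, and for 60 h over 48 h 11 and 21. The 60 h count of higher genes was 19 with at least 10 FPKM and 81 with no minimum, against 37. Below 0.5 and at least 10 FPKM, a stricter condition, 15 genes were switched on and 15 off, against 67 and 41. Of 16 alternative log2 changes of the 4 genes given by identifier, 15 moved by less than 1.5-fold and 0 changed sign; CPIJ010337 had 8.37 with a pseudocount of 0.1. No paired analysis was possible because there is 1 library per time, and no library could be left out. Results for gene lists were not run.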
